A study of Mus musculus with 16 samples.

Results

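The hippocampus is a folded sheet of separate fields, and 10 genes that mark them were followed in RNA-Seq of the mouse dorsal hippocampus. They were taken by name as markers of the adult fields: Prox1, C1ql2, Dsp and Tdo2 for the dentate gyrus, Wfs1, Fibcd1 and Spink8 for CA1, Rgs14 and Amigo2 for CA2, and Iyd for CA3. The choice was made with earlier results of these data known. All 10 were found among the 35328 genes of the deposited table, and all 10 passed the count filter that kept 17830 genes for testing. The study used 16 C57Bl6/J mice in 4 groups of 4. Mice drank water or caffeine (0.3 g/L in the drinking water, for 2 weeks from 8 to 9 weeks of age), and each treatment was studied at rest (home cage) and after spatial training in the Morris water maze (learning), with learning tissue collected 1 hour after the last session. Groups are called by condition and then treatment (home cage water, learning caffeine), and a mouse is named by its group and its number in the labels. Each library came from bulk tissue of 1 mouse and held 23078094 to 49949281 counted reads, and a marker had from 122 (Iyd) to 9892 (Fibcd1) reads in a library. In bulk tissue, fewer cells of a field and less RNA of a marker per cell cannot be told apart.

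In the trisynaptic circuit, granule cells of the dentate gyrus receive input from the entorhinal cortex and send mossy fibers to CA3 pyramidal cells, whose Schaffer collaterals reach CA1, while CA2 lies between CA3 and CA1 and is known for social memory. The fields lie side by side in 1 tissue block, so a piece cut a little differently can hold more of one field and less of another. A field marker is a gene whose mRNA is concentrated in the principal cells of 1 field in the adult. No marker is perfectly private: Prox1 is also made by a class of interneurons, Wfs1 and Amigo2 by neurons outside the hippocampus, and Amigo2 also in part of CA3.

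Promoter sequences were matched by symbol to RefSeq (GRCm38.p6), and 8 of the 10 markers had an entry, Spink8 and Rgs14 being the exceptions. The 250 bases before the RefSeq start are shown for Prox1 and Dsp, the pair of markers that varied most alike between mice. They are also shown for Wfs1 and Amigo2, the markers that passed the test after learning. The Wfs1 window lies mostly, and that of Tdo2 wholly, inside the gene span given below, which comes from another annotation with a different start. Sequences run 5′ to 3′ on the gene's strand. Capitals mark matches on either strand to 3 motifs that do not overlap here: the GC box GGGCGG, bound by Sp factors, the E-box CAGATG, a form bound by neuronal bHLH factors, and the TATA box TATAAA.
Prox1, chr1:190170828-190171077, minus strand: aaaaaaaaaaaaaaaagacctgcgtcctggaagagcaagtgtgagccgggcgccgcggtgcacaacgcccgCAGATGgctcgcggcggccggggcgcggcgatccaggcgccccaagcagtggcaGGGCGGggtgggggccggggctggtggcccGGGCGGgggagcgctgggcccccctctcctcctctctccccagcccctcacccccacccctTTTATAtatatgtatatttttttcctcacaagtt
Dsp, chr13:38151044-38151293, plus strand: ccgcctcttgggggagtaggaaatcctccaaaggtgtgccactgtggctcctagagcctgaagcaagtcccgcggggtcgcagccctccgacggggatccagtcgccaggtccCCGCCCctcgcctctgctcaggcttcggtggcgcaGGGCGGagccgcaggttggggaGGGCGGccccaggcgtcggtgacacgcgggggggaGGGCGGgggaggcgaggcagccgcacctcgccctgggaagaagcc
Wfs1, chr5:36988983-36989232, minus strand: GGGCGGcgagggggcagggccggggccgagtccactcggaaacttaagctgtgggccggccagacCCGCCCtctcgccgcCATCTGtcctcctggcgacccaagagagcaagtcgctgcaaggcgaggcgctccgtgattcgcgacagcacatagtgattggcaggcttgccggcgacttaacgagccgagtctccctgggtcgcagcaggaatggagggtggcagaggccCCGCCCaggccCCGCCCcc
Amigo2, chr15:97247288-97247537, minus strand: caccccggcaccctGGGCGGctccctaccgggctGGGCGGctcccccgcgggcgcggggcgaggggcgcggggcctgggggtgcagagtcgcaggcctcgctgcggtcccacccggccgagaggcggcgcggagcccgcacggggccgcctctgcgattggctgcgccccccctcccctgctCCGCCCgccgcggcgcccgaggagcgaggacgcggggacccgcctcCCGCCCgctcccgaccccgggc
Among all 32851 windows of this length, 32.7% held a GC box, 14.4% this E-box and 12.4% this TATA box. The Prox1 window held 2 GC boxes, 1 E-box and 1 TATA box, Dsp 4 GC boxes, Wfs1 4 GC boxes and 1 E-box, and Amigo2 4 GC boxes in a sequence of 84% G and C. Of the other markers, C1ql2 held none of the 3 motifs, Fibcd1 held 1 GC box, Tdo2 1 TATA box, and Iyd 1 E-box and 1 TATA box. Prox1 has a second RefSeq start, whose window held 1 GC box and neither of the other motifs. None of the 3 motifs was therefore shared by all 4 dentate gyrus markers in these windows, which says nothing of the factors that bind there.

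Levels are first given per length, as RPKM, the scale on which different genes can be compared. RPKM is the count relative to the TMM-scaled library total (CPM), divided by the merged exon length in kilobases. The marker with the highest mean was C1ql2, with 54.5 ± 9.38 RPKM (SD, n = 16 mice). Fibcd1 (38.2 ± 6.04 RPKM), Rgs14 (37.5 ± 4.84 RPKM), Spink8 (36.6 ± 5.09 RPKM) and Wfs1 (35.8 ± 6.99 RPKM) followed (SD, n = 16 each), and their order was not settled within mice: Fibcd1 was above Rgs14 in 6 of 16 mice, Rgs14 above Spink8 in 11 of 16, and Spink8 above Wfs1 in 11 of 16. Prox1, at 15.9 ± 3.52 RPKM, was below Wfs1 in 16 of 16 mice. Amigo2 (9.14 ± 2.04 RPKM) was below Prox1 in 16 of 16 mice, and Dsp (6.99 ± 2.09 RPKM) was below Amigo2 in 13 of 16. Iyd had 4.85 ± 1.13 RPKM and lay below Dsp in 13 of 16 mice. Tdo2 was the lowest, with 2.67 ± 0.574 RPKM, and was below Iyd in 16 of 16 mice. The level of a marker is not the size of its field, since the genes differ in how strongly their cells transcribe them.

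From here on, values of 1 gene in different mice are normalized counts in CPM, without the division by length. Prox1, the homeodomain factor that sets and keeps granule cell identity, lies on chromosome 1 (mm10, 190118035-190170714, ENSMUSG00000010175). It had 97.9, 165, 139.9 and 102 CPM in home cage water mice 6, 8, 11 and 20, and 93.7, 149, 157 and 85.8 CPM in home cage caffeine mice 2, 9, 14 and 17. After learning it had 118, 131, 158 and 179.9 CPM in water mice 24, 33, 36 and 38, and 128, 129, 124 and 178 CPM in caffeine mice 22, 27, 30 and 40. Home cage caffeine mice 17 and 2 were the lowest of the 16 and learning water mouse 38 the highest, a 2.1-fold span, and the ranges of the 4 groups overlapped. Dsp (chromosome 13, 38151294-38198577, ENSMUSG00000054889) encodes desmoplakin, which ties intermediate filaments to desmosomes. Its values were 52.0, 79.1, 67.9 and 48.3 CPM in home cage water mice and 40.6, 65.3, 80.4 and 38.3 CPM in home cage caffeine mice, in the same order of mice. In learning mice they were 53.2, 73.6, 96.7 and 104 CPM with water and 59.0, 63.1, 59.3 and 99.3 CPM with caffeine. Dsp spanned 2.72-fold, the widest span of the 10 markers, with the same lowest and highest mouse as Prox1 and again with overlapping groups. The counts of both genes are slightly uncertain, because 133 exon bases of Prox1 and 499 of Dsp are shared with a gene annotated on the other strand and the sources used here do not say whether the counting used strand.

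C1ql2 (chromosome 1, 120340582-120343174, ENSMUSG00000036907), a secreted C1q-like protein of mossy fiber synapses, had 83.1, 131, 133 and 99.7 CPM in home cage water mice 6, 8, 11 and 20. The home cage caffeine mice 2, 9, 14 and 17 had 84.9, 124, 148 and 96.1 CPM. C1ql2 was at 88.7, 101, 119 and 113 CPM in learning water mice 24, 33, 36 and 38, and at 113, 114, 88.5 and 109.5 CPM in learning caffeine mice 22, 27, 30 and 40. The 8 learning mice lay inside the range of the 8 home cage mice, 88.5 to 119 CPM against 83.1 to 148 CPM. Tdo2 (chromosome 3, 81957090-81976202, ENSMUSG00000028011), tryptophan 2,3-dioxygenase, the enzyme that opens the kynurenine pathway, had 8.45, 14.01, 10.9 and 9.77 CPM in home cage water and 8.46, 9.82, 13.3 and 6.92 CPM in home cage caffeine mice. In learning mice Tdo2 had 8.67, 10.4, 12.4 and 14.4 CPM with water and 8.92, 11.4, 8.16 and 9.46 CPM with caffeine. Mice 2, 6 and 17 of the home cage groups, low in Prox1 and C1ql2, were also low in Tdo2, and home cage mice 8 and 14 were high in all 4 dentate gyrus markers.

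Of the CA1 markers, Wfs1 (chromosome 5, 36966104-36989205, ENSMUSG00000039474) encodes wolframin, a membrane protein of the endoplasmic reticulum. It had 176, 151, 157 and 108 CPM in home cage water mice 6, 8, 11 and 20, and 176, 172, 116 and 149.7 CPM in home cage caffeine mice 2, 9, 14 and 17. It had 101, 115, 152 and 108 CPM in learning water mice 24, 33, 36 and 38, and 139, 115, 113 and 119 CPM in learning caffeine mice 22, 27, 30 and 40. The 6 home cage mice other than 20 and 14 had the highest values together with learning water mouse 36, and the conditions overlapped through these 3 mice. Fibcd1 (chromosome 2, 31813290-31846005, ENSMUSG00000026841), a membrane receptor for acetylated compounds such as chitin, had 217, 194, 199.7 and 153 CPM in home cage water and 210.5, 163, 171 and 227 CPM in home cage caffeine mice. After learning, Fibcd1 was at 130.1, 198, 167 and 155 CPM with water and 159.6, 210.0, 198 and 150.4 CPM with caffeine. Learning water mouse 24 was the lowest and home cage caffeine mouse 17 the highest. Spink8 (chromosome 9, 109812280-109826633, ENSMUSG00000050074), a Kazal-type serine peptidase inhibitor, had 36.5, 28.3, 24.7 and 27.2 CPM in home cage water and 39.9, 27.04, 29.4 and 33.5 CPM in home cage caffeine mice. Its learning values were 29.2, 29.8, 30.6 and 24.3 CPM with water and 32.7, 32.0, 29.4 and 26.0 CPM with caffeine. Spink8 had the smallest span of the 10 markers, 1.64-fold, and its 2 highest values were those of home cage caffeine mouse 2 and home cage water mouse 6, which were among the lowest in the dentate gyrus markers.

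Rgs14 (chromosome 13, 55369732-55384687, ENSMUSG00000052087), a signaling scaffold that restrains synaptic plasticity in CA2, had 165, 143, 149 and 153 CPM in home cage water mice 6, 8, 11 and 20, and 214, 157, 166 and 144 CPM in home cage caffeine mice 2, 9, 14 and 17. In learning mice it had 126, 169, 151 and 149 CPM with water and 169.7, 190.1, 156 and 146 CPM with caffeine. Home cage caffeine mouse 2 stood above the rest and learning water mouse 24 below. Amigo2 (chromosome 15, 97244125-97247287, ENSMUSG00000048218), a leucine-rich repeat adhesion molecule, had 23.4, 21.5, 15.6 and 28.8 CPM in home cage water mice and 34.0, 25.4, 26.5 and 21.6 CPM in home cage caffeine mice. It had 30.5, 32.2, 35.5 and 29.5 CPM in learning water mice 24, 33, 36 and 38, and 39.1, 36.3, 27.1 and 35.6 CPM in learning caffeine mice 22, 27, 30 and 40. All 4 learning water mice were above all 4 home cage water mice, whereas under caffeine home cage mouse 2 lay inside the learning range and learning mouse 30 just above home cage mouse 14. Of the exon bases of Amigo2, 58 are shared with Pced1b on the other strand. Iyd (chromosome 10, 3540240-3554877, ENSMUSG00000019762), iodotyrosine deiodinase, known for iodide recovery in the thyroid, had 4.84, 8.50, 6.34 and 9.67 CPM in home cage water and 11.5, 7.79, 7.29 and 5.08 CPM in home cage caffeine mice. After learning Iyd had 8.17, 7.41, 7.13 and 8.98 CPM with water and 10.6, 5.99, 8.04 and 8.62 CPM with caffeine. Its highest value, in home cage caffeine mouse 2, was 2.38 times its lowest, in home cage water mouse 6, and the 4 learning water mice were the closest together.

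**Figure D1:**
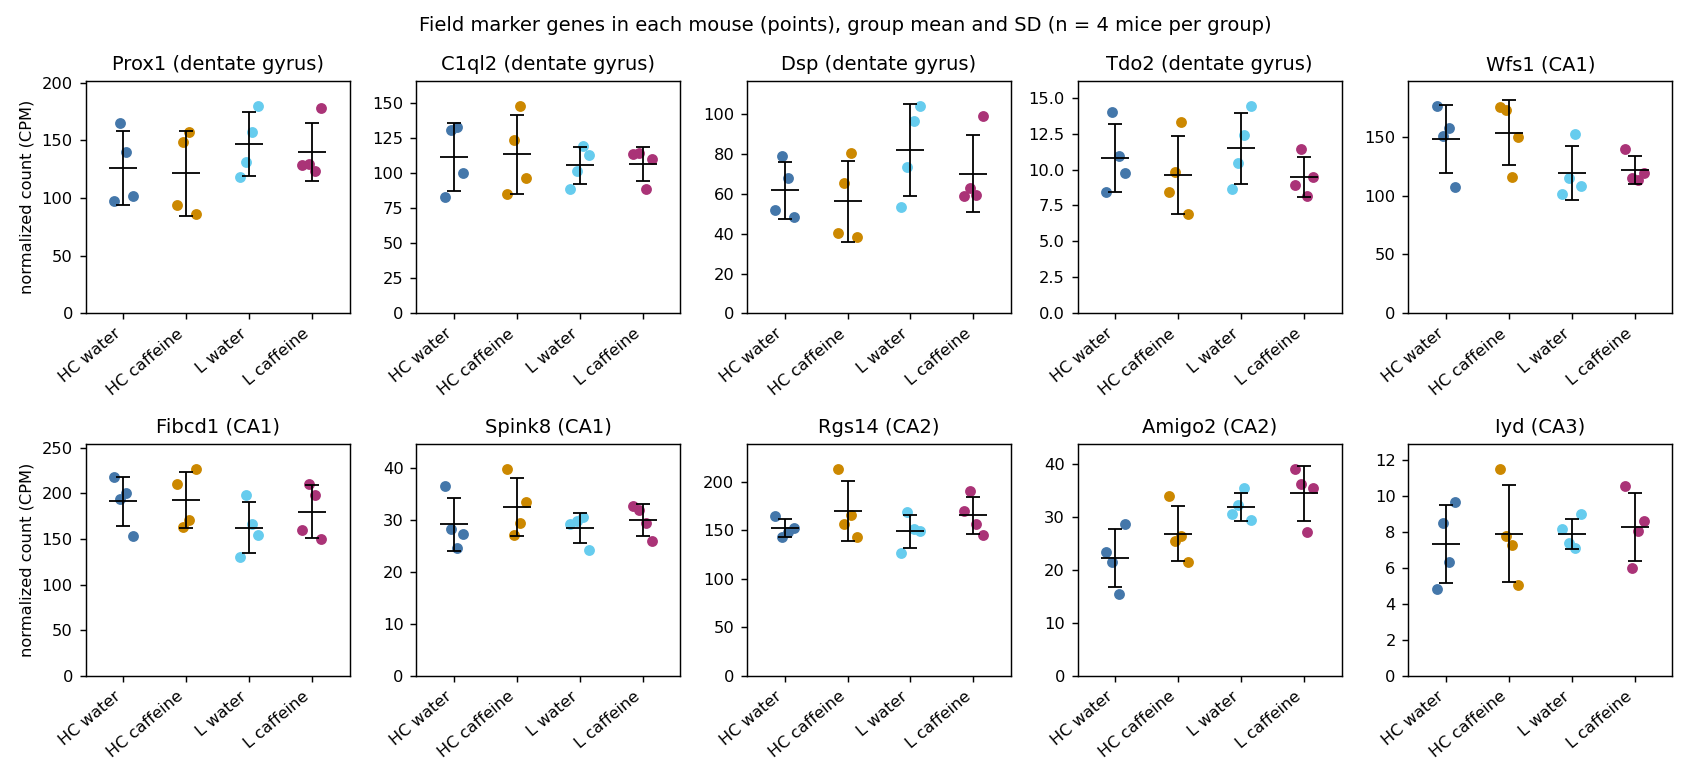
Normalized counts (CPM, axes from 0) of the 10 field markers in each of the 16 mice (points) for home cage (HC) and learning (L) mice with water or caffeine. Horizontal lines are group means and whiskers SD (n = 4). The 4 dentate gyrus markers spread widely within the home cage groups, and for Amigo2 the learning water mice lie above the home cage water mice.

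The spread of the markers between mice of the same group was larger than that of most genes. The within-group SD on the log2 scale was 0.42 for Dsp, 0.38 for Iyd, 0.34 for Prox1, 0.31 for Tdo2 and 0.27 for C1ql2. It was 0.26 for Amigo2, 0.25 for Wfs1, 0.23 for Fibcd1, 0.20 for Spink8 and 0.18 for Rgs14. The median was 0.12 over the 13378 tested genes whose log2 CPM averaged 1 or more. From 75.5% (Rgs14) to 98.3% (Dsp) of those genes had a smaller SD than the marker, and the biological coefficient of variation estimated by edgeR was 1.39 (Spink8) to 3.03 (Dsp) times that of genes of the same abundance.

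To set the fields against each other within a mouse, the mean log2 CPM of the 3 CA1 markers was subtracted from that of the 4 dentate gyrus markers. The difference was -1.36, -0.42, -0.59 and -0.71 in home cage water mice 6, 8, 11 and 20, and -1.48, -0.64, -0.24 and -1.44 in home cage caffeine mice 2, 9, 14 and 17. It was -0.63, -0.64, -0.42 and 0.006 in learning water mice 24, 33, 36 and 38, and -0.77, -0.69, -0.86 and -0.24 in learning caffeine mice 22, 27, 30 and 40. Home cage mice 6, 2 and 17 stood apart at the CA1 end, and learning water mouse 38 lay at the dentate gyrus end. Over all mice the difference spanned 1.49 on the log2 scale, a 2.81-fold change in the ratio of the fields' markers. The group means were -0.77 ± 0.41 in home cage water, -0.95 ± 0.61 in home cage caffeine, -0.42 ± 0.30 in learning water and -0.64 ± 0.27 in learning caffeine (SD, n = 4 each). The gap between learning and home cage was 0.35 with water, beside a pooled SD of 0.36, and 0.31 with caffeine, beside 0.47. Both gaps turned on single mice. With water the gap was 0.16 without home cage mouse 6 and 0.21 without learning mouse 38, and it passed the pooled SD of the mice left in 4 of the 8 sets without a mouse (up to 0.47, without home cage mouse 8). With caffeine it was 0.13, 0.15 and 0.18 without home cage mice 2 and 17 and learning mouse 40, and 0.55, over a pooled SD of 0.37, without home cage mouse 14. The gap between caffeine and water was -0.18 in the home cage (pooled SD 0.52) and -0.22 after learning (0.29). In the home cage it was near 0 without caffeine mouse 2 or 17, -0.06 and -0.12 without water mice 8 and 11, and -0.38, -0.28 and -0.42 without water mouse 6 and caffeine mice 9 and 14. After learning it was -0.08 without water mouse 38 and -0.35, over a pooled SD of 0.24, without caffeine mouse 40. With 7 further dentate gyrus and 5 further CA1 genes added to the markers, the group means were -0.58 ± 0.50, -0.55 ± 0.51, -0.08 ± 0.26 and -0.27 ± 0.34 in the same order of groups (SD, n = 4 each), and home cage mice 6, 17 and 2 remained the 3 lowest. On these wider lists the learning gap with water was 0.50, over its pooled SD of 0.40, and that with caffeine 0.28, under its pooled SD of 0.43. The gap between caffeine and water was 0.03 in the home cage, with the sign turned, and -0.20 after learning (pooled SD 0.30).

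**Figure D2:**
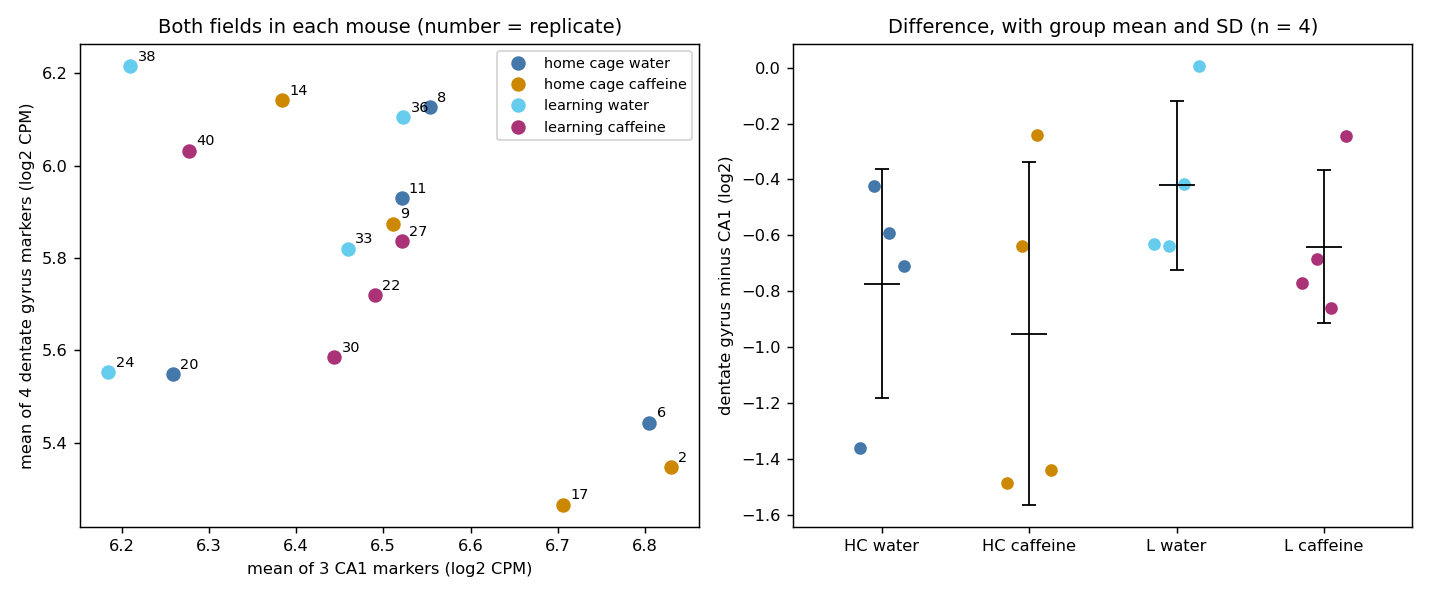
Left, mean log2 CPM of the 4 dentate gyrus markers against that of the 3 CA1 markers in each mouse, with the mouse's number. Right, their difference by group (HC, home cage; L, learning), with group mean and SD (n = 4). Home cage mice 2, 6 and 17 lie at the lower right, high in CA1 and low in dentate gyrus markers, and the groups overlap.

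Whether markers of 1 field went up and down together from mouse to mouse was tested on deviations of log2 CPM from the group mean, over 16 mice and 45 pairs of markers. All 6 pairs of dentate gyrus markers passed (adjusted p under 0.1, two-sided permutation test within groups with 100000 resamples), with Pearson r from 0.80 to 0.96. The closest pair was Prox1 and Dsp, with r = 0.959 (permutation p = 2e-05, adjusted p = 0.0009) and Spearman rho = 0.938 (permutation p = 5e-05, adjusted p = 0.00225). Without the 2 mice farthest from the median of Prox1, r was 0.951. The weakest of the 6, C1ql2 and Dsp, had r = 0.798 (permutation p = 0.00302, adjusted p = 0.0272) and rho = 0.765 (permutation p = 0.00538, adjusted p = 0.0404), and r = 0.81 without the 2 farthest mice. Prox1 with C1ql2 (r = 0.843, rho = 0.862), Prox1 with Tdo2 (r = 0.831, rho = 0.9), C1ql2 with Tdo2 (r = 0.835, rho = 0.879) and Dsp with Tdo2 (r = 0.819, rho = 0.856) lay between, and r stayed at 0.753 or above in each without the 2 farthest mice.

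None of the other 39 pairs passed, and 5 of them had an unadjusted permutation p under 0.05. The 3 CA1 pairs had positive r from 0.38 to 0.51: Fibcd1 with Spink8 had r = 0.506 (permutation p = 0.072, adjusted p = 0.249), Wfs1 with Spink8 r = 0.414 and Wfs1 with Fibcd1 r = 0.375. The CA2 pair, Rgs14 and Amigo2, had r = 0.524 (permutation p = 0.042, adjusted p = 0.192) and rho = 0.606. The highest r of the 39 crossed fields, Spink8 of CA1 with Rgs14 of CA2, at r = 0.557 (permutation p = 0.0469, adjusted p = 0.192) and rho = 0.597, and r was 0.293 without the 2 mice farthest from the median of Spink8. Of the 12 pairs of a dentate gyrus with a CA1 marker, 11 had a negative r over the 16 mice, though not in each condition (below). Spink8 had the lowest values, r = -0.704 with Prox1 (permutation p = 0.0157, adjusted p = 0.101; rho = -0.635), r = -0.629 with C1ql2 and r = -0.616 with Dsp, while Wfs1 stayed near 0, between -0.155 and 0.02. Fibcd1 and Iyd had r = -0.525 (permutation p = 0.0592, adjusted p = 0.222).

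The dentate gyrus pairs were also examined within each condition, where 8 mice allow 576 rearrangements within groups. In home cage mice r ran from 0.858 to 0.977 and 3 of the 6 pairs passed, Prox1 with Dsp, Prox1 with Tdo2, and Dsp with Tdo2 (exact permutation test, adjusted p = 0.0781 each). In learning mice r ran from 0.617 to 0.972 and none passed (exact permutation test). There 2 pairs had an unadjusted p under 0.05, and Prox1 with Dsp had r = 0.972 with an adjusted p of 0.156 by the exact permutation test. With 576 rearrangements p moves in coarse steps, and its smallest value was 0.00174 in home cage and 0.00347 in learning mice (exact permutation test). The counts of passing pairs therefore cannot show a difference between the conditions. The pairs of Spink8 with Prox1 and with Dsp were negative in both conditions (r = -0.69 and -0.742 with Prox1, -0.621 and -0.637 with Dsp, home cage first), whereas Spink8 with C1ql2 had r = -0.838 in the home cage and 0.004 after learning. Wfs1 had a negative r with each dentate gyrus marker in home cage mice (-0.362 to -0.127) and a positive r with each in learning mice (0.209 to 0.645). Fibcd1 was negative with each in home cage mice (-0.496 to -0.431). In learning mice it ran from -0.228 with Prox1 to 0.296 with Tdo2.

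**Figure D3:**
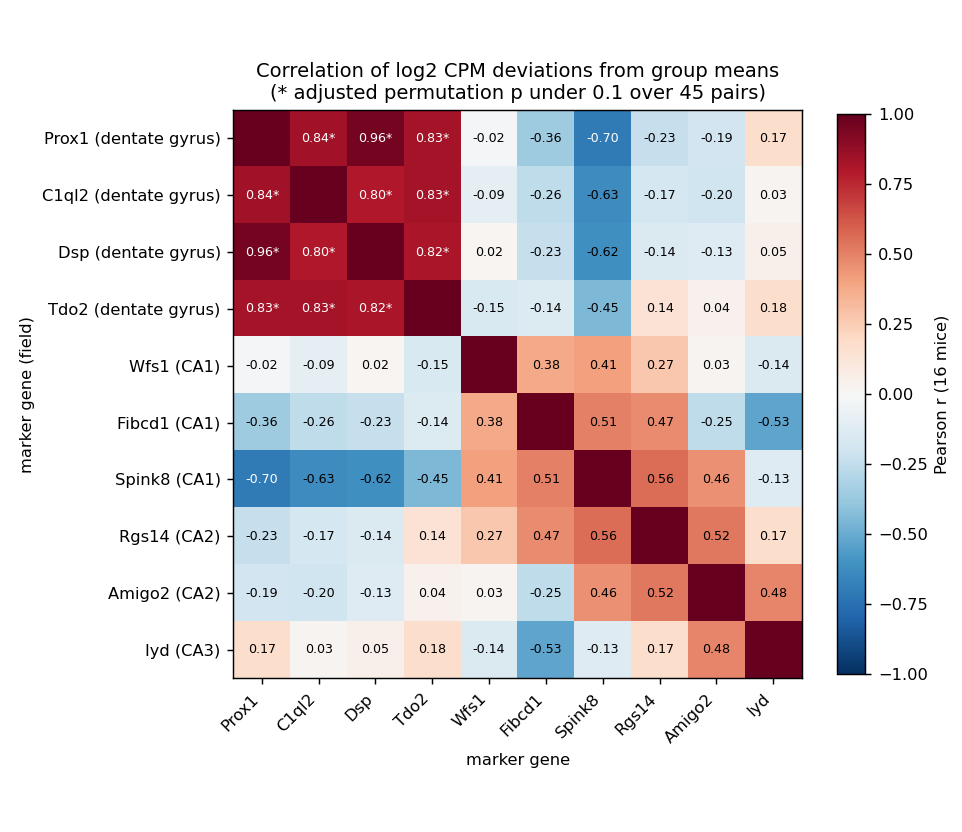
Pearson r over 16 mice between the log2 CPM deviations of the 10 markers from their group means (color scale from -1, blue, to 1, red). Stars mark pairs with an adjusted permutation p under 0.1 over 45 pairs. The 6 starred pairs are the dentate gyrus block at the upper left, and the dentate gyrus by CA1 block is negative in 11 of 12 cells.

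For 1 marker of each field, all 13377 other tested genes whose log2 CPM averaged 1 or more were ranked by their r with it over the 16 mice, as a description. Those most like Prox1 were Sema5a, a transmembrane semaphorin (r = 0.973), Rfx3, a transcription factor of ciliated cells (0.972), Fnip2, a folliculin partner (0.967), Pkia, an inhibitor of protein kinase A (0.96), and Mfap3 (0.96). Dsp ranked 7, C1ql2 364 and Tdo2 449 in that order, and Spink8 ranked 12515, near the other end. Those most like Iyd were Trhde, a peptidase that degrades thyrotropin-releasing hormone (r = 0.961), Cpne4, a copine (0.934), Cd109, a membrane protein of the macroglobulin family (0.918), Aak1, a kinase of clathrin adaptors (0.9), and Slc17a8, the vesicular glutamate transporter VGLUT3 (0.877). Amigo2 ranked 1434 by likeness to Iyd.
Among the genes most like Rgs14 were Asns, asparagine synthetase (r = 0.917), Abhd3 (0.903), Aars, alanyl-tRNA synthetase (0.898), and Wdpcp (0.872), with Spink8 at rank 498 and Amigo2 at 666. Most like Wfs1 were Bag5, a co-chaperone (r = 0.826), Lingo3 (0.82), Rundc1 (0.805), Tlnrd1 (0.79) and Lrmp (0.789), and the other CA1 markers Spink8 and Fibcd1 ranked 816 and 1055. The 5 genes nearest Prox1 thus had r of 0.96 or more, and the 5 nearest Wfs1 0.826 or less. All these values share the same 16 libraries.

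Other genes of the fields were then placed on the same scale. All 7 other dentate gyrus genes had a positive r with Prox1, from 0.406 (Il16) to 0.953 (Stxbp6), with a median of 0.904. Il16, the least like Prox1, had r = 0.855 with Iyd and ranked 18 by likeness to it, ahead of all 3 other CA3 genes. Dock10 (0.946), Lct (0.908), Trpc6 (0.904) and Plk5 (0.791) were close to Prox1. All 3 other CA3 genes had a positive r with Iyd, Nectin3, an adhesion molecule (0.827), Bok, a BCL2 family member (0.723), and Grik4, a kainate receptor subunit (0.633). All 5 other CA1 genes had a positive r with Wfs1, but low, with a median of 0.269, and all 5 had a negative r with Iyd, with a median of -0.569 and the lowest at -0.772 (Ccn3). The 5 other CA2 genes compared had r with Rgs14 from 0.018 to 0.43 (median 0.237). Genes of neighboring tissue varied with some of the markers. The median r of the 5 white matter genes with Prox1 was -0.491, that of the 3 subiculum genes with Iyd -0.54, and that of the 7 choroid plexus genes 0.513 with Iyd and -0.462 with Wfs1. Some other medians lay nearer 0. White matter had 0.067 with Wfs1 and 0.136 with Iyd, choroid plexus 0.185 with Prox1, and thalamus 0.086 with Iyd. The thalamus median hides a split list, since r with Iyd ran from -0.74 (Slc17a6, also listed for the subiculum) to 0.761 (Prkcd).

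**Figure D4:**
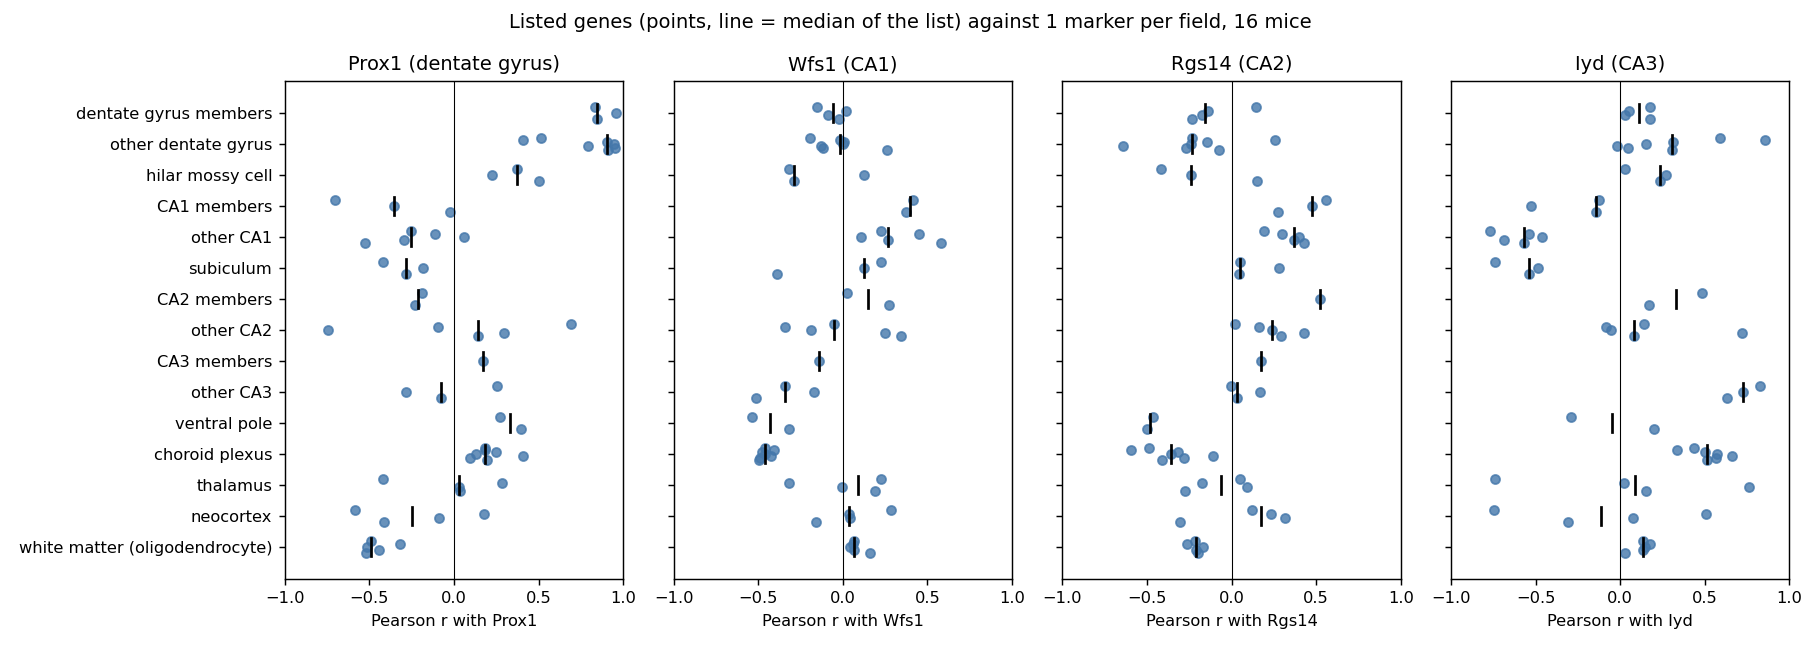
Pearson r (horizontal axis, from -1 to 1) of listed genes with Prox1, Wfs1, Rgs14 and Iyd over 16 mice. Each point is a gene of the list named at the left and each short black line the list's median. The other dentate gyrus genes lie at 0.406 to 0.953 with Prox1 and the other CA3 genes at 0.633 to 0.827 with Iyd, while the other CA1 genes have a median of 0.269 with Wfs1.

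Whether learning changed the markers was asked first with both treatments averaged, by edgeR's quasi-likelihood test with Benjamini-Hochberg adjustment over 17830 genes (called at an adjusted p under 0.1). Amigo2 was higher and Wfs1 lower after learning, and the other 8 markers were not called. These are 2 of 10 markers, beside 14.5% of all tested genes called in this comparison. Amigo2 had 24.6 ± 5.49 CPM in home cage and 33.2 ± 4.04 CPM in learning mice (SD, n = 8 each), or 0.44 on the log2 scale with a standard error of 0.11 (adjusted p = 0.0243 in edgeR). Home cage mice ranged from 15.6 to 34.0 CPM and learning mice from 27.1 to 39.1 CPM. Amigo2 was called in each of the 16 edgeR fits that left out a mouse (adjusted p from 0.00906 to 0.0481). Wfs1 had 151 ± 26.3 CPM in home cage and 120.4 ± 16.9 CPM in learning mice (SD, n = 8 each), or -0.32 on the log2 scale with a standard error of 0.11 (adjusted p = 0.0704 in edgeR).

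The call of Wfs1 rested on the mice included, and 5 of the 16 edgeR fits that left out a mouse kept it. Its adjusted p was 0.165 without home cage water mouse 6 and 0.132 without mouse 11. It was 0.1396, 0.122 and 0.101 without home cage caffeine mice 2, 9 and 17. Without learning water mice 24, 33 and 38 it was 0.1004, 0.119 and 0.128, and without learning caffeine mice 27, 30 and 40 it was 0.103, 0.1285 and 0.123. The log2 fold change of Wfs1 stayed between -0.39 and -0.26 in all 16 fits, and at an adjusted p under 0.05 only Amigo2 of the 10 markers was called, beside 7.76% of all tested genes. In the 16 fits from 1 to 3 markers were called, beside 9.92% to 17.7% of all tested genes.

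Among the dentate gyrus markers Dsp had the largest log2 fold change after learning, 0.36 (standard error 0.18, adjusted p = 0.204 in edgeR), and was called only in the fits without home cage caffeine mouse 14 (adjusted p = 0.0784) or learning water mouse 24 (adjusted p = 0.0925). Prox1 had 0.21, Tdo2 0.03 and C1ql2 -0.09. Over the fits without a mouse Tdo2 ran from -0.03 to 0.138 and C1ql2 from -0.13 to -0.003, so the sign of Tdo2 was not settled and C1ql2 came near 0. The remaining CA1 markers, Fibcd1 (-0.17) and Spink8 (-0.07), had the sign of Wfs1. Rgs14, the other CA2 marker, had -0.04 beside 0.44 for Amigo2, and Iyd had 0.08. The median over all 10 markers was -0.002 and over all tested genes -0.01.

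Measures of other tissue moved with the same contrast. The summed level of the 7 choroid plexus genes (Ttr, Folr1, Kl, Kcne2, Aqp1, Otx2 and Clic6) was 187 to 2328 CPM in home cage and 110.5 to 425 CPM in learning mice, and all 7 were called lower after learning, with a median log2 fold change of -1.26. With water 4 of the 7 were called lower (median -1.90), and with caffeine none was called in edgeR (median -0.85, 2 at an unadjusted p under 0.05). Each of the 7 was detected in every mouse, down to 0.545 CPM for Kcne2. The mitochondrial share of counts was 3.46% to 4.49% in home cage and 3.23% to 3.59% in learning mice. Home cage water mouse 20, learning water mouse 24 and home cage caffeine mouse 17 were the highest in the choroid plexus list, the white matter list and the mitochondrial share, respectively. Without these 3 mice the log2 fold change was 0.48 for Amigo2 (adjusted p = 0.0177 in edgeR) and -0.35 for Wfs1 (adjusted p = 0.0526). The part of the other tissue in the values of the markers was not tested.

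Within each treatment, no marker was called between learning and home cage. With water, Amigo2 had means of 22.3 ± 5.45 CPM in home cage and 31.9 ± 2.62 CPM in learning mice (SD, n = 4 each), or 0.51 on the log2 scale with a standard error of 0.16 (adjusted p = 0.184 in edgeR), and it alone had an unadjusted p under 0.05. It was also the only 1 of the 10 markers whose groups did not overlap. For all genes, 0.97% were called, 11.8% had an unadjusted p under 0.05 and 6.99% did not overlap. Amigo2 was called here by DESeq2's Wald test (adjusted p = 0.0633), beside 2.68% of all genes, and by edgeR when every gene with a count was tested (adjusted p = 0.0484), beside 0.869%, so its call depends on the method. With caffeine, Amigo2 had means of 26.9 ± 5.19 and 34.5 ± 5.19 CPM (log2 fold change 0.36, adjusted p = 0.225 in edgeR) and Wfs1 means of 153 ± 27.6 and 122 ± 12.0 CPM (log2 fold change -0.33, adjusted p = 0.241), home cage first (SD, n = 4 each). These 2 markers had an unadjusted p under 0.05 and none of the 10 had groups apart. Here 5.28% of all genes were called, 18.8% had an unadjusted p under 0.05 and 10.9% did not overlap. DESeq2 called no marker with caffeine, and 9.79% of all genes. Both comparisons use different mice, and the difference between the responses was tested directly: no marker was called by edgeR or DESeq2 or had an unadjusted p under 0.05, against 0 called in edgeR, 0.018% called in DESeq2 and 3.63% at that unadjusted p among all genes, and the largest difference was -0.16 for Amigo2 (adjusted p = 1 in edgeR).

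Whether caffeine moved the markers was asked at rest and after learning. No marker was called by edgeR or by DESeq2's Wald test in either condition, or in the average of the conditions. None had an unadjusted p under 0.05, and none had groups apart. In the home cage the log2 fold changes ran from -0.17 (Tdo2) to 0.27 (Amigo2, standard error 0.16), with 0 genes called among all tested in edgeR, 0.09% in DESeq2 (19 genes), 3.57% at an unadjusted p under 0.05 and 1.99% not overlapping. After learning they ran from -0.27 (Tdo2, standard error 0.19) to 0.15 (Rgs14), with 0 genes called in edgeR, 0.018% in DESeq2 (6 genes), 3.93% at an unadjusted p under 0.05 and 2.6% not overlapping. In the average of the conditions 0 genes were called in edgeR, 0.0782% in DESeq2 (16 genes), and 4.07% had an unadjusted p under 0.05 in edgeR. The counts of 0 over all genes depend on the filter and on 1 mouse: with every gene of at least 1 count edgeR called 34 genes in the home cage, 8 after learning and 36 in the average, and without home cage water mouse 6 it called 33 in the home cage and 24 in the average, no marker among them. In the main fit over all 16 mice the caffeine averages were 0.19 for Amigo2, 0.16 for Rgs14, 0.12 for Spink8, 0.09 for Iyd and 0.08 for Fibcd1. They were 0.04 for Wfs1, 0.02 for C1ql2, -0.06 for Prox1, -0.18 for Dsp and -0.22 for Tdo2. Standard errors of these 10 values lay between 0.08 (Rgs14) and 0.18 (Dsp), so each value but those of Amigo2, Rgs14, Spink8, Dsp and Tdo2 was smaller than its standard error. The summed level of the choroid plexus genes was 300.0 to 2328 CPM in home cage water and 187 to 494.5 CPM in home cage caffeine mice, and 157 to 425 and 110.5 to 198 CPM after learning. Their median log2 fold change was -1.75 in the home cage, -0.77 after learning and -1.11 in the average, where 7, 2 and 7 of the 7 had an unadjusted p under 0.05 and none was called in edgeR. Their part in the values of the markers was not tested.

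**Figure D5:**
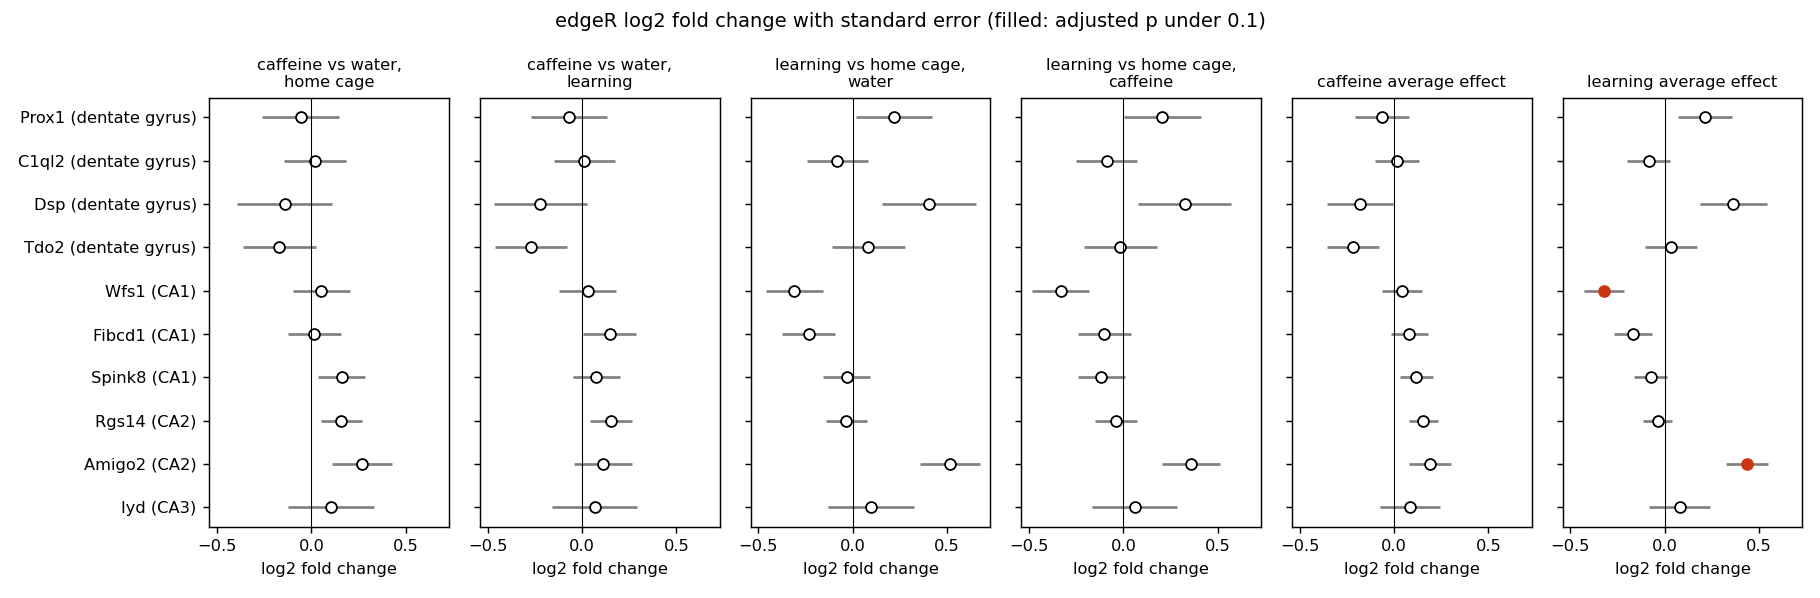
Log2 fold changes (points) with edgeR standard errors (bars) of the 10 markers in the 4 pairwise comparisons and both averages. Filled red points have an adjusted p under 0.1. Only Amigo2 (0.44) and Wfs1 (-0.32) in the learning average are filled.

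The other genes listed for each field were read from the same fit for the learning average, where 14.5% of all tested genes were called. The counts in these short lists are a description, and 1 of 7 and 1 of 5 lie near that share. Of 7 other dentate gyrus genes, 6 had a positive value (median 0.19) and 1 was called, Il16, a cytokine precursor with PDZ domains, at 0.40 (adjusted p = 0.0199 in edgeR). Il16, which varied between mice more like Iyd (r = 0.855) than like Prox1 (0.406), had 34.7 to 62.0 CPM in home cage and 56.1 to 70.1 CPM in learning mice. Of 5 other CA1 genes all 5 had a negative value (median -0.28) and 1 was called, Man1a, a Golgi mannosidase, at -0.28 (adjusted p = 0.0847 in edgeR). Man1a had 88.0 to 137 CPM in home cage and 70.4 to 115 CPM in learning mice. None of the 6 other CA2 genes was called (range -0.21 to 0.22). None of the 3 other CA3 genes (0.06 to 0.18) or the 3 mossy cell genes of the hilus (-0.18 to 0.17) was called either. Of 3 genes of the ventral pole, Trhr, the receptor of thyrotropin-releasing hormone, was called higher (log2 fold change 0.63, adjusted p = 0.0457 in edgeR), at a low level of 0.921 to 1.72 CPM in home cage and 1.23 to 3.13 CPM in learning mice. Only Trhr of the 3 had a positive value in this average (list median -0.064, lowest -0.139). It was also called with caffeine alone (0.90, adjusted p = 0.0762 in edgeR), beside 5.28% of all tested genes. There too the other genes of the list were below 0 (list median -0.014, lowest -0.336).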

How the data were processed

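RNA-Seq libraries (stranded, poly-A selected, single-end) were made from dorsal hippocampal RNA of 16 mice. The deposited values are raw counts of reads on Ensembl genes, which the authors obtained per the labels with bcl2fastq 2.17.1.14, STAR and HTSeq 0.6.1p1 on mm10. They kept uniquely aligned reads, counted in union mode and pooled no replicates. Whether the counting used strand is not given in the sources used here. The table holds 35328 genes, of which 35247 were matched to GENCODE M21.

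The members and lists, and the rules for naming genes, were chosen with earlier results of these data known. Counts were normalized by TMM and tested in R 4.3.3 with edgeR 4.0.16 (filterByExpr, a mean per group over 16 libraries, quasi-likelihood test, Benjamini-Hochberg over 17830 genes, threshold 0.1), after the steps were tested on simulated data. CPM is a count relative to the TMM-scaled library total and RPKM divides it by the merged exon length. Correlations used log2 CPM (prior count 0.5) as deviations from group means. No p was computed for scores over several markers. Genes named besides the 10 markers are listed field or tissue genes called in any comparison, the most abundant gene of each list, and the 5 genes most like Prox1, Wfs1, Rgs14 and Iyd. Genes given with their r only were named after their values were seen, and some genes that meet these rules are not reported here.

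Alternatives were DESeq2 1.42.0 size factors or Wald test, library totals without TMM, filters of at least 1 count in total or 10 in every library, robust empirical Bayes, an adjusted p under 0.05, fits on the 8 libraries of a comparison, a prior count of 5, the wider lists, CPM in place of log2 CPM, and each mouse left out. Depth ranged from 23078094 to 49949281 counts, without molecular identifiers.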

Additional observations from a re-analysis of the deposited data

Results flagged for a closer look

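Of 44 sets of 4 mice examined (10 markers and the dentate gyrus minus CA1 difference in 4 groups), 3 held a mouse far from the other 3 of its group, by Dixon's criterion; chance alone marks about 1 set in 20. All 3 were dentate gyrus markers in learning caffeine mice. Prox1 was at 177.9 CPM in mouse 40, above 124 to 129 CPM in the other 3. Dsp was at 99.3 CPM in the same mouse, above 59.0 to 63.1 CPM. C1ql2 was at 88.5 CPM in mouse 30, below 109.5 to 114 CPM in the others. Mouse 40 was not set apart in C1ql2 (109.5 CPM) or Tdo2 (9.46 CPM).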

How the results depend on the processing

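The call of Amigo2 in the learning average held under every alternative run (log2 fold change 0.382 to 0.52, adjusted p from 0.00186 to 0.0481). That of Wfs1 held under other normalizations, filters and tests (adjusted p from 0.0255 to 0.0765), and in 5 of 16 fits without a mouse (0.029 to 0.1646). The number of markers called was 1 at an adjusted p under 0.05 and from 1 to 3 with a mouse left out, beside 7.76% and 9.92% to 17.7% of all tested genes. Between learning and home cage with water it was 1 (Amigo2) with every gene of at least 1 count, beside 0.869% of all tested genes. The number was also 1 (Amigo2) with DESeq2's Wald test, beside 2.68%. Without the 3 mice that stood apart, a setting chosen after seeing the data, it was 1 again (Amigo2, adjusted p = 0.0972 in edgeR), beside 0.448%. Counts of passing pairs of markers were 3 within home cage and 0 within learning mice, where 8 mice remain, and 6 to 9 otherwise. Of 70 fold changes of markers, 35 changed sign in at least 1 fit without a mouse, none of them called and 0 under another normalization, filter or test. Ranges over the fits without a mouse were -0.03 to 0.138 (Tdo2), -0.07 to 0.043 (Rgs14) and -0.003 to 0.219 (Iyd) for learning, and -0.137 to 0.017 (Prox1), -0.061 to 0.074 (C1ql2), -0.02 to 0.114 (Wfs1) and -0.039 to 0.171 (Iyd) for caffeine. Without the 3 mice that stood apart the caffeine averages of C1ql2 (-0.011), Wfs1 (-0.051) and Fibcd1 (-0.054) were below 0. No paired analysis was possible because no replicate number is shared between groups.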

Other observations

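Genes of tissue that borders the dissected block were read from the same fit, by lists of marker genes. The choroid plexus, the epithelium that secretes cerebrospinal fluid, was the list with the widest range between mice. Its most abundant gene, Ttr, which carries thyroid hormone, had 245 to 2160 CPM in home cage water mice and 74.0 to 154 CPM in learning caffeine mice. In the learning average Ttr (-1.59), Aqp1, a water channel (-1.59), Kcne2, a potassium channel subunit (-1.30), Folr1, a folate receptor (-1.26), Clic6 (-1.17), Otx2, a homeodomain factor (-0.90), and Kl, klotho (-0.32), were all called lower on the log2 scale (adjusted p from 0.0133 to 0.0848 in edgeR). With water alone Ttr, Folr1, Kcne2 and Aqp1 were called lower (adjusted p from 0.0429 to 0.087 in edgeR).

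The 5 white matter genes summed to 4617 to 11130 CPM, with Mbp, myelin basic protein, at 2304 to 5361 CPM, and the highest sum was in learning water mouse 24, which was also lowest in Wfs1, Fibcd1 and Rgs14. Of all mice it had the lowest sum of the other CA1 genes (295 CPM). It had the highest sums of the other CA2 genes (145 CPM) and of the other CA3 genes (314 CPM). None of the 5 white matter genes was called in any comparison in edgeR. Between learning and home cage with caffeine 2 had an unadjusted p under 0.05, beside 18.8% of all tested genes. With caffeine against water after learning 1 did, beside 3.93%, and for the difference of the learning responses 2 did, beside 3.63%. Home cage water mouse 6 and home cage caffeine mouse 17, low in dentate gyrus and CA3 markers, had the highest sums of the subiculum genes in their groups (90.5 and 94.2 CPM) and of the other CA1 genes (718 and 634 CPM), and the lowest of the other CA3 genes (176 and 169 CPM). Home cage caffeine mouse 2, also at the CA1 end of the difference, went the other way. In its group it had the lowest sum of the subiculum genes (51.3 CPM) and the highest of the other CA3 genes (267 CPM). The most abundant genes of the other lists were Stxbp6 of the dentate gyrus (113 to 212 CPM), Mpped1 of CA1 (128 to 277 CPM), Necab2 of CA2 (59.2 to 104 CPM), Bok of CA3 (83.9 to 142 CPM), Fn1 of the subiculum (35.8 to 68.7 CPM), Tbr1 of neocortex (34.9 to 45.7 CPM), Prkcd of thalamus (27.7 to 59.5 CPM), Calcrl of hilar mossy cells (5.77 to 9.07 CPM) and Dcn of the ventral pole (6.35 to 29.4 CPM).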
